A study of Danio rerio with 14 samples.

Results

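Contraction and energy supply of fast skeletal muscle were followed in 5 of the 32520 genes of the count tables, chosen by Ensembl identifier: mylpfa (ENSDARG00000053254, the mylz2 gene), acta1b (ENSDARG00000055618), tpma (ENSDARG00000033683), ckma (ENSDARG00000035327) and atp2a1 (ENSDARG00000020574). No threshold on a measured value was applied to choose them. RNA-Seq had been done on cells sorted from dissected heads of zebrafish larvae at 72 hours postfertilization (hpf). The mylz2+ cells are labelled as muscle and the sox10+ cells as neural crest and chondrocytes, and each population had 4 wild-type/heterozygous libraries and 3 psmb1 mutant libraries. The question was how a mutation of psmb1, a subunit of the proteasome core, changes the transcripts of each population. Between the genotypes, 3 of the 5 genes (mylpfa, acta1b and atp2a1) were called lower in mutant mylz2+ cells, as were 11.7% of all 20413 genes tested. ckma and tpma did not pass the test. The 3 falls did not pass in a fit of all 14 libraries together.

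The mutants carried 2 copies of the psmb1 hi2939 allele, a retroviral insertion in the first intron from which normal transcript is still made at a lower level, so they are not a complete loss of the transcript. The other group pooled psmb1+/+ and psmb1+/- larvae, so it is not a purely wild-type control. The strain was AB unless stated otherwise, and several heads were pooled in every library. For the sox10+ libraries 7000 cells were sorted on the Kaede protein of the Tg(sox10:kaede) line, which also marks cells outside the neural crest, such as the ear. For the mylz2+ libraries 1500 cells were sorted, and the study's line of that name is Tg(mylz2:mCherry), in which the promoter of mylz2 drives the fluorescent protein. That promoter belongs to mylpfa, so in these cells 1 of the 5 genes was tied to the sort itself. Population, reporter and number of cells sorted cannot be told apart in any comparison between mylz2+ and sox10+ libraries.

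A muscle fibre shortens when myosin heads of the thick filament pull on actin of the thin filament. mylpfa encodes the regulatory light chain that wraps the neck of fast myosin. acta1b encodes a skeletal alpha-actin, the building block of the thin filament, and tpma encodes a tropomyosin, the coiled coil along actin that covers or exposes the sites where myosin binds. ckma encodes a muscle creatine kinase, which moves phosphate between creatine phosphate and ATP and so refills ATP during contraction. atp2a1 encodes SERCA1, the calcium pump that returns calcium to the sarcoplasmic reticulum and lets the fibre relax.

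The libraries held 69357630 to 103563447 counts in mylz2+ cells and 54824619 to 72034939 in sox10+ cells, so that 3 counts were worth between 0.0290 and 0.0547 CPM, the unit of level used here (counts of a gene for each 1000000 counts in its library). Such a floor covers counting error only. The labels were checked by psmb1 itself (PSMB1, ENSDARG00000009640). After scaling by the TMM method, which sets the libraries of 1 population against each other by the bulk of their genes, psmb1 stood at 124 to 164 CPM in the 4 wild-type/heterozygous mylz2+ libraries and at 68.1 to 85.1 CPM in the 3 mutants. It was 1.80-fold lower there (log2 fold change -0.85, SE 0.13, adjusted p = 0.00137 by the quasi-likelihood (QL) test of edgeR, with Benjamini-Hochberg (BH) adjustment). In sox10+ cells the ranges were 57.6 to 92.4 and 69.2 to 90.5 CPM, and the genotypes did not differ past the threshold (log2 fold change 0.04, SE 0.20, adjusted p = 0.958 by the same edgeR test), so in those cells the level of psmb1 did not check the labels. The difference between these psmb1 effects missed the threshold too (log2 -0.90, adjusted p = 0.102 by the edgeR QL interaction test). Against their labels, the sox10+ libraries held 891 to 1244 CPM of sox10 transcript and the mylz2+ libraries 0.288 to 5.66 CPM. The summed level of 9 muscle markers, which include all 5 genes, was 147358 to 227720 CPM in mylz2+ and 73.7 to 2060.1 CPM in sox10+ libraries.

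In mylz2+ cells, mylpfa was lower in every mutant library than in any wild-type/heterozygous library. Its TMM-scaled level was 42132, 59138, 47410.3 and 43174 CPM in wild-type/heterozygous replicates 1 to 4, and 28708, 22626 and 33214 CPM in mutant replicates 1, 3 and 4. The highest mutant library, replicate 4, lay below the lowest wild-type/heterozygous library, replicate 1. The means were 47964 ± 7791 CPM (SD, n = 4) and 28182.5 ± 5314 CPM (SD, n = 3). mylpfa fell 1.70-fold in mutants (log2 fold change -0.77, SE 0.18, 95% interval -1.17 to -0.37, adjusted p = 0.0118 by the edgeR QL test, BH adjusted over 20413 genes). It was past the threshold in all 7 fits that left out 1 library, with log2 fold changes of -0.92 to -0.64. The call was lost with a block for the replicate number of the sample descriptions (log2 fold change -0.77, adjusted p = 0.119 by edgeR) and in a fit of all 14 libraries with 1 dispersion trend (-0.78, adjusted p = 0.640 by edgeR). Because the sort selected cells by a reporter of this gene, whether the same gate took cells of another reporter brightness in mutants was not tested.

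Of the thin filament genes, acta1b fell and tpma did not move past the test. acta1b had 8369.9, 8437, 7202 and 7574 CPM in the wild-type/heterozygous libraries. In the mutants it had 3208, 2472 and 5318 CPM. All 3 mutant libraries were low, with replicate 4 the highest of them, and the genotypes did not overlap. Its mean went from 7896 ± 606 CPM (SD, n = 4) to 3666 ± 1477 CPM (SD, n = 3), 2.15-fold lower (log2 fold change -1.11, SE 0.23, adjusted p = 0.00643 by the edgeR QL test, BH adjusted). Relative to its mean, its spread was 40.3% in mutants and 7.68% in wild-type/heterozygous libraries. In the fit of all 14 libraries the call of acta1b was lost (-1.12, adjusted p = 0.639 by edgeR).

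tpma stood at 3999, 3034.5, 2961 and 2536 CPM in the wild-type/heterozygous libraries and at 2503, 2709 and 7656 CPM in the mutants. Mutant replicates 1 and 3 fell at the low end of the other genotype, and mutant replicate 4 was above every other mylz2+ library. The log2 fold change was 0.45 (SE 0.35, 95% interval -0.33 to 1.23, adjusted p = 0.431 by the edgeR QL test, BH adjusted). Without mutant replicate 4 it was -0.29 (adjusted p = 0.365 by the same edgeR test), so that library decided the sign. The same library held transcripts of the heart: MYL7, the cardiac regulatory light chain, had 3590 counts there and 0 to 9 in the other 6 mylz2+ libraries, and cmlc1, a cardiac light chain, had 1386 against 0 to 22. Over the 7 genes of the cardiac list that did not pass the default filter and so had no test, the summed level was 70.3 CPM in mutant replicate 4. It was 0.0237 to 0.675 CPM in the other mylz2+ libraries. The cardiac list genes that were tested gave another picture. Of these 8, 5 were called lower in mutants, 3 were not called and none was higher. TNNT2 (ENSDARG00000020610) had 143 to 208 CPM in wild-type/heterozygous and 40.0 to 53.6 CPM in mutant libraries, replicate 4 included. The part of heart transcripts in the level of tpma was not tested.

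ckma had 14780.5, 15840.0, 13854 and 13652 CPM in the wild-type/heterozygous libraries. The mutants had 9235, 8720.4 and 13938 CPM. Mutant replicates 1 and 3 were below all wild-type/heterozygous libraries and mutant replicate 4 was within their range, so the genotypes overlapped. The log2 fold change of -0.45 (SE 0.17, 95% interval -0.84 to -0.06) had an adjusted p of 0.0958 by the edgeR QL test, BH adjusted and did not pass. Without mutant replicate 4 it was -0.71 with an adjusted p of 0.00377 by that edgeR test, and with DESeq2's Wald test on all 7 libraries it was -0.46 with an adjusted p of 0.0352. The call on ckma thus turned on that library and on the test.

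atp2a1 had the smallest adjusted p of the 5 genes. The wild-type/heterozygous libraries had 31690.5, 39334.5, 32928 and 33576 CPM, and the mutants had 18076, 12756.5 and 19409 CPM. Every mutant library was below every wild-type/heterozygous library, with a gap between them wider than the range of either genotype. The means of 34382 ± 3393 CPM (SD, n = 4) and 16747 ± 3520 CPM (SD, n = 3) differed 2.05-fold (log2 fold change -1.04, SE 0.17, adjusted p = 0.00174 by the edgeR QL test, BH adjusted). With 1 library left out the log2 fold change stayed between -1.17 and -0.89, past the threshold each time, but in the fit of all 14 libraries its adjusted p was 0.518 by edgeR (log2 fold change -1.05).

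**Figure D1:**
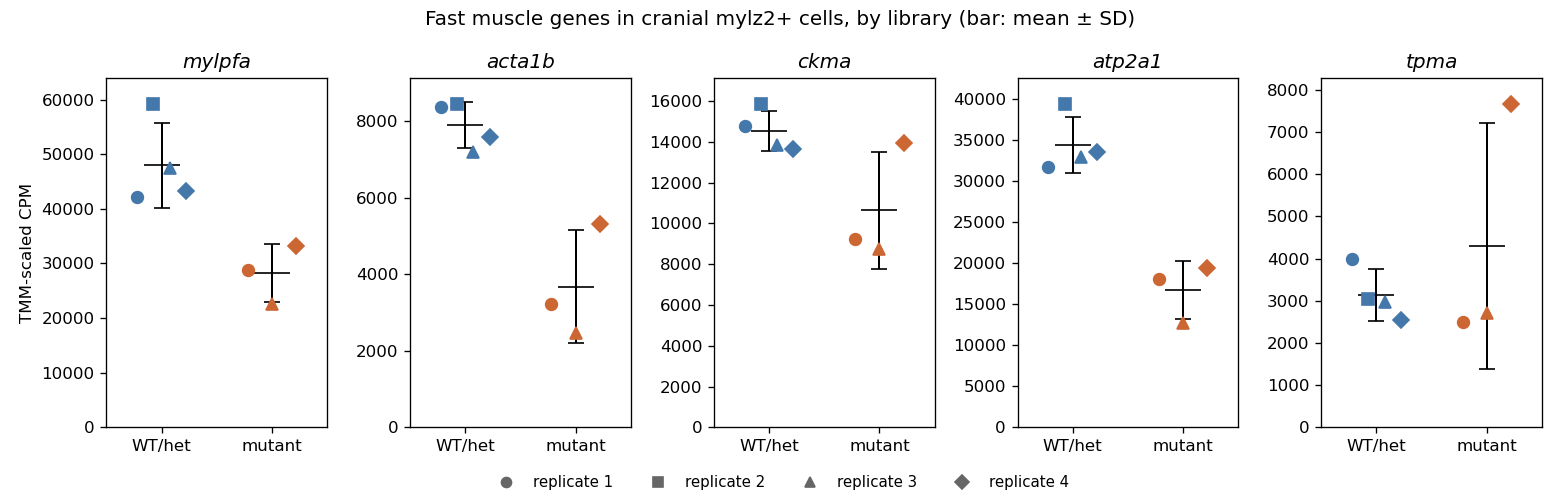
TMM-scaled CPM of mylpfa, acta1b, ckma, atp2a1 and tpma in each mylz2+ library, with wild-type/heterozygous (WT/het, 4 libraries) on the left and mutants (3 libraries) on the right of each panel; symbols give the replicate, and the black bar and whiskers are the mean and SD. The mutants lay below the other genotype without overlap for mylpfa, acta1b and atp2a1, and mutant replicate 4 was the highest mutant library for all 5 genes.

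Thus 3 of the 5 genes were called lower at an adjusted p under 0.05 and none higher, in a comparison in which 22.5% of the 20413 genes tested were called (11.7% lower and 10.8% higher). The same 3 genes were those whose genotypes did not overlap with the mutants lower, as for 16.5% of all genes tested. Without mutant replicate 4, ckma was called lower too, but the share of all genes called in that fit was not computed. The 5 genes were measured in the same libraries and are not replicates of each other. Fewer muscle cells among those sorted and less RNA of these genes per muscle cell cannot be told apart in bulk libraries. Among the mutants, replicate 4 was the highest library for 5 of the 5 genes and replicate 3 the lowest for 4 of them. In the wild-type/heterozygous libraries replicate 2 was the highest for 4 genes.

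The size of these changes moved with how libraries were scaled. When libraries were scaled by their totals alone, the median log2 fold change over all genes tested was 0.41 and not 0.01, and 4352 of 5474 calls were higher in mutants (79.5%), against 2202 of 4587 (48.0%). On that scale mylpfa stood at -0.37 (adjusted p = 0.0245), acta1b at -0.74 (adjusted p = 0.00949) and atp2a1 at -0.65 (adjusted p = 0.00135 by the edgeR QL test), all 3 still past the threshold. ckma was then at -0.07 (adjusted p = 0.702) and tpma at 0.79 (adjusted p = 0.0901, by the same edgeR test). Relative to that median of 0.41, the values on library totals were -0.79 for mylpfa, -1.15 for acta1b, -0.48 for ckma, -1.06 for atp2a1 and 0.38 for tpma, and since a scaling factor shifts all genes of a library alike, this is a change of reference and no check of the calls.

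A share of the library needs no scaling factor beyond the library total. It restates the levels on library totals for the 5 genes together, and the most abundant of them weigh most. The 5 genes together took 9.30%, 10.1%, 9.67% and 9.10% of all counts in the wild-type/heterozygous mylz2+ libraries. They took 7.39%, 6.28% and 8.36% in the mutants. No mutant reached the lowest wild-type/heterozygous share. The difference of the means was -2.21 percentage points (9.55 ± 0.450% against 7.34 ± 1.04%, n = 4 and 3, two-sided exact permutation p = 0.0571), and 0.0571 is the smallest p that 3 against 4 libraries can give. In each library the 100 most abundant genes were taken anew, so the set can differ between libraries and can include the 5. They took 53.8 ± 1.28% of the counts in wild-type/heterozygous and 45.4 ± 3.39% in mutant libraries (n = 4 and 3, exact permutation p = 0.0571). The share of mitochondrially encoded transcripts was 1.83 ± 0.491% and 1.47 ± 0.0879% (n = 4 and 3, exact permutation p = 0.343).

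Ratios between the genes gave a measure of unequal change. Within a library, the ratio of the counts of 2 genes is free of scaling, and 6 of the 10 pairs had ratios that did not overlap between the genotypes. Over every pair of the genes tested that had counts in all 7 libraries, 32.5% of the ratios did not overlap. The 10 pairs share 5 genes and are not independent of each other. Relative to atp2a1, mylpfa was higher in mutants, with a difference of 0.28 in the mean log2 ratio, and ckma was higher by 0.57. Relative to ckma, acta1b was lower (difference of mean log2 ratio -0.70). Relative to tpma, acta1b (-1.45), ckma (-0.75) and atp2a1 (-1.33) were all lower. Each of these 6 had the smallest attainable exact permutation p of 0.0571 (n = 4 and 3, two-sided), or 0.0952 after Benjamini-Hochberg adjustment over the 10 pairs, so none could pass a threshold of 0.05 in this design. The ratio of acta1b to atp2a1, the 2 genes with the largest falls, differed by -0.12 (exact permutation p = 0.571, n = 4 and 3). Counted per mylpfa count, atp2a1 gave 0.752, 0.665, 0.695 and 0.778 in wild-type/heterozygous libraries and 0.630, 0.564 and 0.584 in mutants, so the gap between the genotypes was narrow. For ckma to tpma the genotypes barely separated. The lowest wild-type/heterozygous log2 ratio was 1.886 and the highest mutant log2 ratio was 1.883.

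Each of the 5 genes has close relatives in zebrafish whose reads can be hard to separate, and how the counting treated shared reads is not given in the sources used here. For the actins, the second skeletal alpha-actin gene (ACTA1, ENSDARG00000036371) fell 4.73-fold, from 7878 to 11120.5 CPM in wild-type/heterozygous libraries to 1499 to 2295 CPM in mutants (log2 fold change -2.24, SE 0.19, adjusted p = 5.99e-05 by the edgeR QL test, BH adjusted). actc1a and actc1b, actin genes named after the cardiac form, fell as well (log2 fold changes -0.99 and -0.69, adjusted p = 0.00152 and 0.0333 by the same edgeR test). All 4 actin genes were thus lower after TMM scaling. On library totals actc1b in mutant replicate 4 (93524 CPM) lay within the wild-type/heterozygous range (87371 to 97821 CPM). The genotypes of acta1b, ACTA1 and actc1a did not overlap on that scale. With the counts of the 4 genes summed, acta1b formed 5.33% to 6.07% of the sum in wild-type/heterozygous libraries and 3.97% to 5.04% in mutants.

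Tropomyosin genes moved apart. TPM2 (ENSDARG00000104682) had 8958 to 11391 CPM in wild-type/heterozygous and 3265 to 4039 CPM in mutant libraries (log2 fold change -1.40, SE 0.14, adjusted p = 0.00013 by the edgeR QL test, BH adjusted). tpm3 had 3143 to 4332 and 984 to 1247 CPM (log2 fold change -1.70, SE 0.15, adjusted p = 6.54e-05 by that edgeR test). Both fell without overlap, also in mutant replicate 4, the library in which tpma was high. In the counts summed over the 3 tropomyosin genes, tpma held 16.2% to 24.8% in wild-type/heterozygous libraries and 32.2%, 38.9% and 61.1% in mutant replicates 1, 3 and 4. All 3 mutants were above the other genotype in this share, with or without replicate 4. The summed tropomyosin counts were lower in mutants (log2 fold change -0.86, adjusted p = 0.0121 by the edgeR QL test), the opposite sign to tpma alone.

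For creatine kinase, ckmb fell past the threshold where ckma did not (log2 fold change -0.84, SE 0.20, adjusted p = 0.0110 by the edgeR QL test, BH adjusted). ckma formed 43.6% to 44.2% of the counts of both in the 4 wild-type/heterozygous libraries and 49.6% to 52.0% in the mutants. The summed counts of both were lower in mutants (log2 fold change -0.66, adjusted p = 0.0287 by the same edgeR test). The relative atp2a1l, a gene close to atp2a1, fell by 0.54 on the log2 scale after TMM scaling (adjusted p = 0.0106 by the edgeR QL test). On library totals the genotypes overlapped for atp2a1l, at 2057 to 2638 CPM in wild-type/heterozygous and 2080 to 2221 CPM in mutant libraries. atp2a1 formed 92.0% to 93.9% of the pair in wild-type/heterozygous and 88.7% to 91.2% in mutant libraries. The second fast regulatory light chain gene (MYL11, ENSDARG00000002589) had 156 to 289 CPM in wild-type/heterozygous libraries and 108, 61.8 and 409 CPM in mutant replicates 1, 3 and 4 (log2 fold change -0.06, adjusted p = 0.964 by the edgeR QL test), and mylpfa formed 98.8% to 99.7% of that pair in every library.

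**Figure D2:**
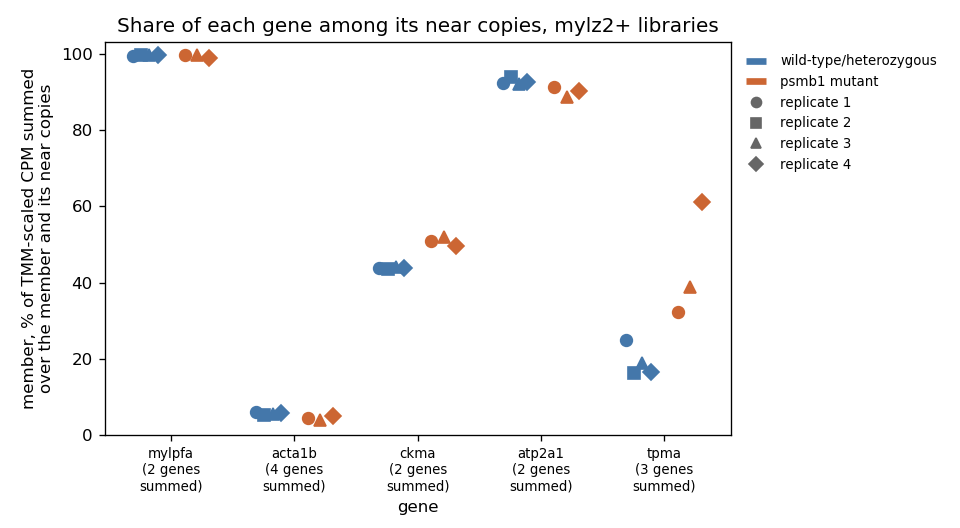
Percent of the TMM-scaled CPM summed over a gene and its near copies that the gene itself holds, in each mylz2+ library; colour gives the genotype, symbols the replicate, and the number of genes summed stands under each name. ckma held 43.6% to 44.2% of its pair in wild-type/heterozygous and 49.6% to 52.0% in mutant libraries, tpma held 16.2% to 24.8% and 32.2% to 61.1% of 3 tropomyosin genes, and mylpfa held 98.8% to 99.7% throughout.

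Other genes of the same machinery were taken from 8 lists of muscle genes, which held 162 genes with a test outside the 5. Of these, 120 were lower and 5 higher in mutant mylz2+ cells, with a median log2 fold change of -0.99 beside 0.01 over all genes tested. Over all 20413 genes tested 11.7% were lower and 10.8% higher. On library totals the list counts were 92 lower and 10 higher with a median of -0.58, beside 0.41 over all genes. On that scale 1122 of all 20413 genes were lower and 4352 higher. These backgrounds stand beside every list count in mylz2+ cells below. In the fast thick filament list, to which mylpfa belongs, 10 of 14 other genes fell and none rose. MYBPC2, a fast myosin binding protein C, fell 4.88-fold (97.5 ± 16.0 to 20.0 ± 2.27 CPM, n = 4 and 3). The light chain gene myl13 fell 4.80-fold and the fast heavy chain gene myhb 3.96-fold (all 3 with an adjusted p under the threshold of the edgeR QL test).

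Of 19 other thin filament genes, 14 fell and none rose. TNNI2 (ENSDARG00000045592), a fast troponin I, fell 5.02-fold and tnnc2.1, a fast troponin C, which binds the calcium that starts contraction, fell 4.27-fold. The ACTA1 gene given above stood between them. These genes were named because their falls were the largest of the list. Over the 19 other thin filament genes the median log2 fold change was -0.99, beside -1.11 for acta1b. The difference between genes was not tested.

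Of 25 other genes of creatine phosphate and glycolysis, the energy pathways of fast fibres, 15 fell and 3 rose. The falls were led by a muscle pyruvate kinase gene (PKM, ENSDARG00000099860, 2.83-fold), aldolase (ALDOA, ENSDARG00000011665, 2.65-fold) and phosphofructokinase (PFKM, ENSDARG00000014179, 2.60-fold). The genes that rose were LDHA, lactate dehydrogenase A, from 86.2 ± 17.8 to 211 ± 24.2 CPM (n = 4 and 3, 2.45-fold), GPD1 (ENSDARG00000043180, a glycerol-3-phosphate dehydrogenase, 2.00-fold) and a second pyruvate kinase gene (PKM, ENSDARG00000099730, 1.70-fold). The 2 genes matched to PKM thus moved in opposite directions, and on library totals 5 genes of this list were higher.

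Calcium handling, the list of atp2a1, had 24 of 31 other genes lower and none higher. pvalb4, a parvalbumin that buffers calcium in fast fibres, fell 3.61-fold, and CACNA1S (ENSDARG00000029457), the voltage sensor of the muscle membrane, fell 3.31-fold. musk, a receptor kinase of the neuromuscular junction, fell 3.31-fold. On library totals 15 genes of this list were lower. Among 34 Z-disc and M-band genes 26 fell, led by myoz3a, a protein of the Z-disc, at 5.91-fold, and 2 rose. These were hsp90aa1.1, the chaperone that folds muscle myosin, from 6376 ± 557 to 14838 ± 1213 CPM (n = 4 and 3, 2.33-fold), and UNC45B, its partner in myosin folding (1.60-fold).

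Slow muscle genes, which belong to another fibre type, were lower without exception among the 14 tested. tnni1c and tnni1d, troponin I genes of the slow type, fell 5.22-fold and 5.17-fold. TNNI1 (ENSDARG00000000474), from 8.61 ± 2.24 to 0.641 ± 0.262 CPM (n = 4 and 3), had the largest fitted fall of the lists, 13.5-fold. Of 8 cardiac list genes with a test, 5 fell, 2 genes matched to TNNI1 and 2 genes matched to TNNT2 among them. Both TNNI1 genes also belong to the slow muscle list and were already counted there. Of 19 myogenic regulators and fusion genes, 14 fell and none rose, with MYF6 (3.21-fold), MEF2C (ENSDARG00000009418, 2.76-fold) and MEF2A (2.53-fold), all transcription factors of muscle, as the largest. On library totals 9 of these 19 were lower.

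**Figure D3:**
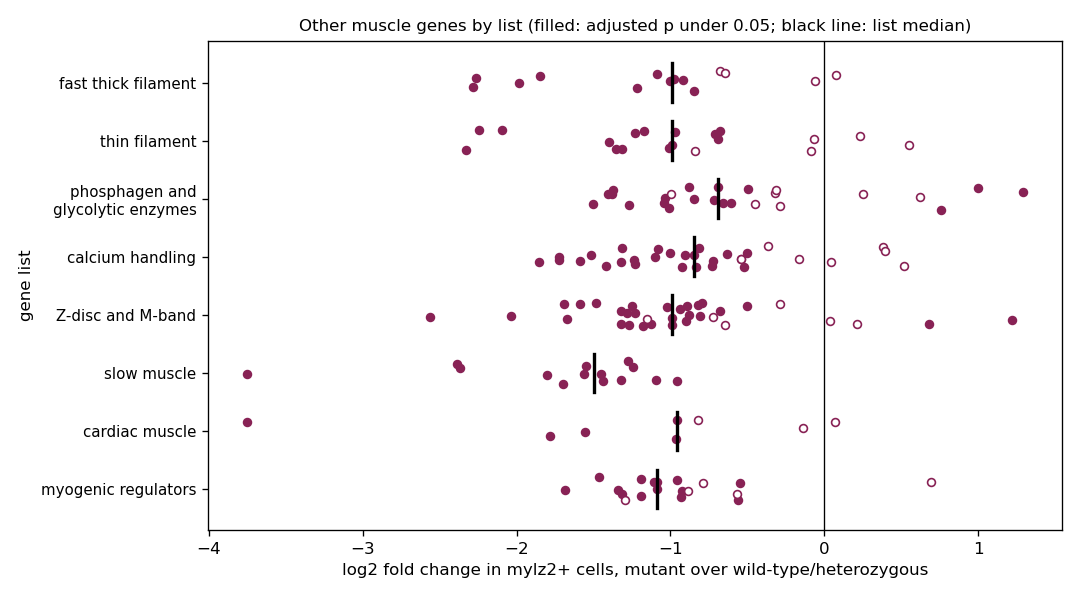
Log2 fold change of each gene of the 8 muscle lists outside the 5 genes, mutant over wild-type/heterozygous, in mylz2+ cells; each point is a gene, filled where the adjusted p was under 0.05, and the black line is the median of the list. All 8 medians lie below 0, and the filled points above 0 are 3 genes of glycolysis and 2 of the Z-disc list.

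Markers of other cell types were present in the mylz2+ libraries. In sox10+ libraries 7 epithelial markers summed to 2115 to 3929 CPM in wild-type/heterozygous and 2773 to 3585 CPM in mutants. In mylz2+ libraries their summed level was no lower as a whole, at 2031.0 to 4081 CPM in wild-type/heterozygous and 3789 to 5004 CPM in mutants. By the edgeR test in mylz2+ cells, 1 of the 7 was higher and 1 lower. The 12 cartilage and neural crest markers summed to 293 to 742 and 514 to 787 CPM, with none called. The 7 leukocyte markers summed to 5.63 to 15.3 and 13.2 to 43.3 CPM, with 1 of the 5 tested called higher. Other lists held genes called lower and none called higher. For neurons these were 3 of 9, with summed levels of 281 to 350.2 CPM in wild-type/heterozygous and 304 to 341 CPM in mutant libraries. For bone and connective tissue they were 2 of the 9 tested (478 to 895 and 622 to 832 CPM), and for retina and lens 1 of the 5 tested (14.7 to 395 and 4.39 to 40.7 CPM). No marker of melanophores, glia, erythrocytes or endothelium was called. Over all genes tested in mylz2+ cells 11.7% were called lower and 10.8% higher. The small marker counts were not tested against those shares. The part of other cells in the lower level of the muscle genes was not tested.

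Across all 14 libraries the genes with the profile closest to the mean profile of the 5, by the root mean square difference of centred log2 CPM over 2654 genes ranked, were actc1b (0.191), ckmb (0.405), actc1a (0.438), TNNT3 (ENSDARG00000068457, 0.450) and MYL1 (ENSDARG00000017441, 0.481). By the same measure mylpfa lay 0.295 from that mean, ckma 0.354, atp2a1 0.473, tpma 0.913 and acta1b 1.13. acta1b had 0 counts in sox10+ mutant replicate 4, where the pseudocount of 0.1 CPM set its value. Its distance without that library was not computed. These profiles include the difference between the sorted populations.

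In sox10+ cells all 5 genes were detected at low levels, and the level differed more between libraries of a genotype than in mylz2+ cells. On library totals mylpfa had 373, 98.7, 86.0 and 150.2 CPM in the wild-type/heterozygous libraries and 29.9, 255 and 15.8 CPM in the mutants. acta1b had 87.6, 9.01, 12.2 and 28.5 CPM, against 6.81 and 7.96 CPM in mutant replicates 1 and 3. In mutant replicate 4 it had 0 counts, which allows up to 0.0416 CPM (3 counts). For acta1b alone the genotypes did not overlap, as for 8.56% of genes tested with the mutants lower, and the lowest wild-type/heterozygous library stood close above the highest mutant.

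The remaining genes shared the highest library of each genotype with these. ckma had 106, 26.3, 40.2 and 63.6 CPM in wild-type/heterozygous libraries and 13.1, 70.3 and 7.09 CPM in mutants. atp2a1 had 279, 87.5, 52.1 and 54.6 CPM and then 10.6, 90.1 and 6.05 CPM. tpma had 119, 14.4, 12.4 and 28.7 CPM and then 9.81, 39.7 and 7.12 CPM. Wild-type/heterozygous replicate 1 was the highest of its genotype for all 5 genes, mutant replicate 3 the highest mutant for all 5, and mutant replicate 4 the lowest for all 5. As a percent of the mean of the wild-type/heterozygous mylz2+ libraries, the sox10+ libraries ranged from 0.0374% to 0.881% for mylpfa, 0.0199% to 0.916% for atp2a1, 0.0550% to 0.822% for ckma and 0.255% to 4.25% for tpma, with 1.25% as the highest for acta1b.

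**Figure D4:**
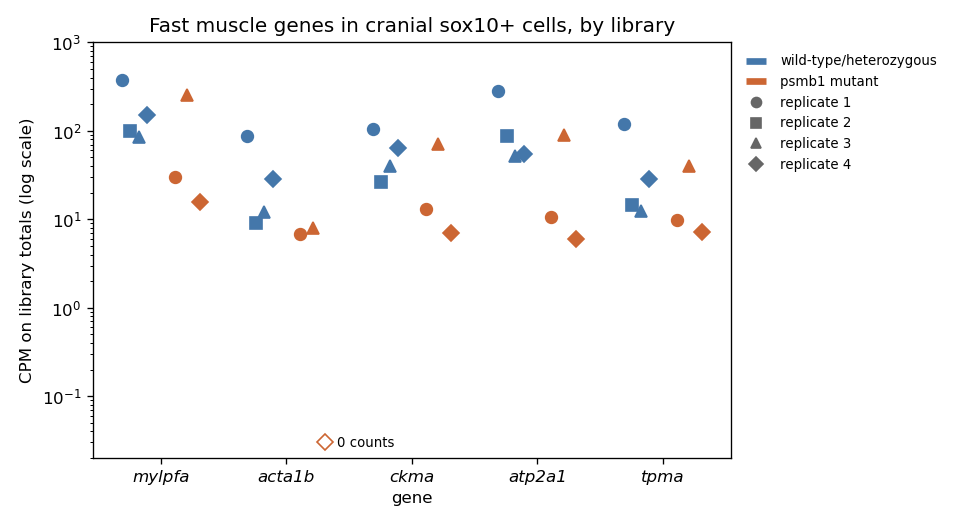
CPM on library totals, on a log axis, of the 5 genes in each sox10+ library; colour gives the genotype and symbols the replicate, and the open symbol at the bottom marks the library with 0 counts of acta1b. Wild-type/heterozygous replicate 1 and mutant replicate 3 were the highest of their genotype for every gene.

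None of the 5 genes passed the threshold in sox10+ cells, where 3.69% of 21476 genes were called (1.59% lower and 2.1% higher). The log2 fold changes were -1.01 for mylpfa, -3.02 for acta1b, -1.15 for ckma, -1.91 for atp2a1 and -1.40 for tpma, with adjusted p of 0.693, 0.306, 0.539, 0.368 and 0.521 by the edgeR QL test, BH adjusted. Before adjustment the smallest p among them was 0.0514, that of acta1b, and DESeq2's Wald test called none. The 95% intervals were wide, from -2.99 to 0.97 for mylpfa and from -4.05 to 0.22 for atp2a1. Without mutant replicate 3 the values were -3.12 for mylpfa (adjusted p = 0.0819), -2.72 for ckma (adjusted p = 0.0861) and -4.00 for atp2a1 (adjusted p = 0.0654 by the same edgeR test). Without wild-type/heterozygous replicate 1 mylpfa was at -0.29 and tpma at -0.12. The 5 genes took 0.0964%, 0.0236%, 0.0203% and 0.0326% of the counts in wild-type/heterozygous and 0.00702%, 0.0463% and 0.00361% in mutant libraries (two-sided exact permutation p = 0.4, n = 4 and 3).

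Of the 155 tested genes of the muscle lists outside the 5, edgeR called 2 lower and 3 higher in sox10+ cells. Over all 21476 genes it called 1.59% lower and 2.1% higher, so in that fit calls on the lists were about as frequent as on all genes. DESeq2 called 19 lower and 6 higher among 143, beside 1324 lower and 1098 higher over the 27546 genes it fitted. Lower calls were thus more frequent on the lists than over the genes fitted. However, the 27546 include genes without an adjusted p and the 143 do not. With at least 10 counts in every library, edgeR called 10 lower and 4 higher among 86 list genes. The share over all genes was not computed for that filter. myhb fell from 32.1 to 180 CPM in wild-type/heterozygous libraries to 1.24 to 3.09 CPM in mutants, and mybphb, a myosin binding protein H, from 70.0 to 156 CPM to 26.5 to 45.0 CPM. These were 2 of the 14 genes of the fast thick filament list. LDHA and GPI (ENSDARG00000012987, glucose-6-phosphate isomerase) rose, LDHA from 104 to 236 CPM on average (log2 fold change 1.18, adjusted p = 0.00837 by the edgeR QL test, BH adjusted), and UNC45B rose from 7.08 to 25.1 CPM. These calls were not equally stable when each sox10+ library was left out in turn. myhb and LDHA passed in 7 of 7 fits. mybphb and GPI passed in 5 of 7, both being lost without mutant replicate 1 and without mutant replicate 4. UNC45B passed in 1 of 7, only without wild-type/heterozygous replicate 1 (adjusted p = 0.0298 to 0.188 over the 7 edgeR fits). With a replicate block by title number none of the list genes was called by edgeR, where the adjusted p was 0.0506 for myhb and 0.0938 for LDHA.

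The effect of the genotype did not differ between the populations past the threshold for any of the 5 genes, in a test that called 1.53% of 23232 genes. That test came from the fit of all 14 libraries, in which the falls of mylpfa, acta1b and atp2a1 in mylz2+ cells were not called either. Relative to the mean, the spread of the 5 genes was 62.8% to 133% within sox10+ groups and 6.89% to 68.0% within mylz2+ groups. The mutant effect in mylz2+ cells minus that in sox10+ cells was 0.23 for mylpfa, 1.89 for acta1b, 0.70 for ckma, 0.86 for atp2a1 and 1.83 for tpma on the log2 scale, with adjusted p from 0.555 to 0.985 by the edgeR QL test. Their 95% intervals spanned from -2.23 to 2.69 for mylpfa and from -1.63 to 5.41 for acta1b, so the intervals hold differences of several-fold in either direction. Among the relatives, tpm3 did differ (log2 -2.01, SE 0.21, adjusted p = 0.000347 by the same edgeR test). On library totals tpm3 stood at 143 to 204 CPM in wild-type/heterozygous and 229 to 240 CPM in mutant sox10+ libraries.

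**Figure D5:**
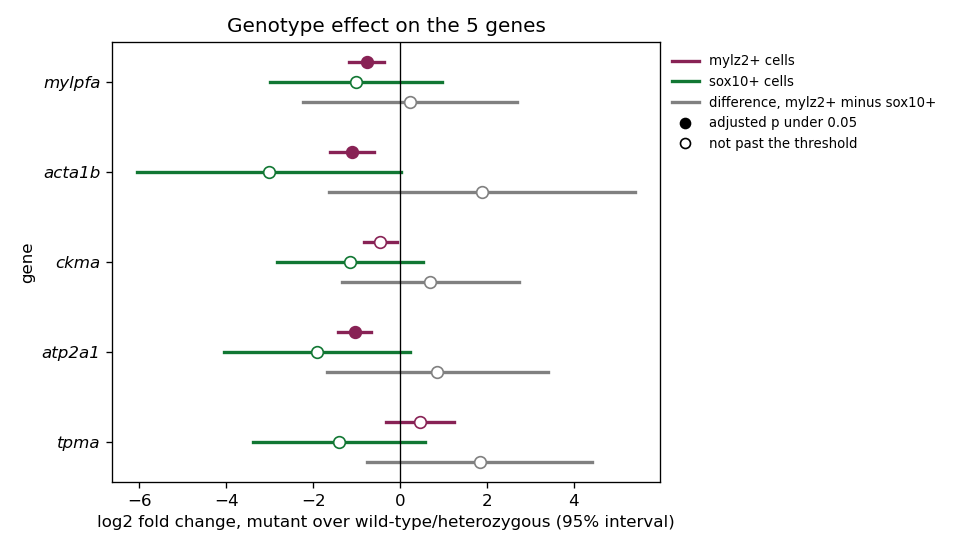
Log2 fold change of the 5 genes, mutant over wild-type/heterozygous, with 95% intervals, in mylz2+ cells, in sox10+ cells and as the difference between them; filled points had an adjusted p under 0.05. Only mylpfa, acta1b and atp2a1 in mylz2+ cells are filled, and the intervals of sox10+ cells reach from -6.05 for acta1b to 0.97 for mylpfa.

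Between the populations, the 4 genes that could be tested were far higher in mylz2+ than in sox10+ cells. Among wild-type/heterozygous libraries the log2 difference in level was 8.85 for acta1b, 8.95 for ckma, 9.21 for atp2a1 and 7.17 for tpma (SE 0.86 to 1.46). All 4 were past the threshold of the edgeR QL test, where 42.1% of genes were called and 20.5% were higher in mylz2+ cells. Among mutants the log2 differences were 9.64 for ckma, 10.06 for atp2a1, 9.01 for tpma and 10.73 for acta1b, for which 1 of the 3 sox10+ libraries had 0 counts. All 4 were again past the threshold, in a test that called 33.3% of genes, 17.0% as higher. For mylpfa, the gene of the sort reporter, the log2 difference was 9.09 in wild-type/heterozygous and 9.32 in mutant libraries, given as a description with no test. On library totals the wild-type/heterozygous differences were smaller, at 7.67 for acta1b, 7.77 for ckma, 8.01 for atp2a1 and 6.002 for tpma, where the median of all genes stood at -1.41 and not -0.21.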

How the data were processed

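Per the labels, the authors aligned reads of amplified full-length cDNA to GRCz11 with STAR and deposited whole-number counts per gene, not normalized, for 32520 Ensembl identifiers. The counting tool, its use of strand and its treatment of shared reads are not given in the sources used here. Symbols came from a reference table (29201 identifiers, 89.8%), which gives many zebrafish genes their human symbol, so 12 of 246 list and marker symbols found no match and some found several genes. The 14 columns were assigned to samples by name. The mylz2+ mutant replicate called 3 here has the number 2 in its column.

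Each population was tested with edgeR 4.0.16 (R 4.3.3, TMM scaling, default filter, robust quasi-likelihood fit, Benjamini-Hochberg adjustment over all genes tested, threshold 0.05), the difference between populations in a fit of all 14 libraries. Shares and ratios were compared by exact permutation over libraries. DESeq2 1.42.0, other scalings and filters, a replicate block and fits with 1 library left out served as alternatives. In simulated mylz2+ counts with 200 genes changed 4-fold, edgeR recovered 197 of them with 6 false calls among 19534 genes. In simulated sox10+ counts with 200 genes changed 4-fold, it recovered 157 with 6 false calls among 20641. On the same simulated counts DESeq2 recovered 198 in mylz2+ and 171 in sox10+, with 72 and 78 false calls. For the difference between populations, with 200 genes changed 4-fold in mylz2+ mutants only, edgeR recovered 125 with 6 false calls. DESeq2 recovered 138 there with 40 false calls. The falls of mylpfa, acta1b and atp2a1 in mylz2+ cells were smaller, at 1.70-fold, 2.15-fold and 2.05-fold. In that comparison 22.5% of the genes tested were called, a larger part than was changed in the simulation. Recovery and false calls for changes of that size or number were not tested. Every simulated gene had the dispersion of the trend, and the changed genes were drawn only from those above a minimum level. The spread of real genes around that trend was not simulated.

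The genes and the lists were chosen with earlier results of these data known. The 5 genes and their near copies were always named. From each list the genes with the largest falls and rises past the threshold in mylz2+ cells were named, up to 3 each way, where either genotype averaged 100 counts or more; the genes called in sox10+ cells were named after their values were seen. The genes with the closest profile were the 5 nearest among those with at least 100 CPM in a group, at a pseudocount of 0.1 CPM.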

Additional observations from a re-analysis of the deposited data

Results flagged for a closer look

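Of 12 groups tested over both populations, 3 were flagged for a library far from the others. The groups tested were those of 4 libraries, all wild-type/heterozygous, so no mutant library could be flagged. All 3 flags fell on the first wild-type/heterozygous sox10+ library, which is not in every group, so 3 of 12 is not its rate. In it atp2a1 stood at 303 CPM after TMM scaling, while the other 3 had 52.0 to 86.5 CPM. tpma stood at 129 CPM there, while the others had 12.4 to 31.6 CPM. The share of its counts held by the 5 genes was 0.0964%, against 0.0203% to 0.0326%. In each case the gap to the nearest library, divided by the range of the group, was above Dixon's critical value for 4 libraries. Chance passes that value in about 1 of 20 groups if the values are normally distributed. The levels and shares were not transformed, and their distribution was not checked. The 12 groups share libraries, and the share sums the same 5 genes, so they are not independent.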

How the results depend on the processing

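In mylz2+ cells, the calls of mylpfa, acta1b and atp2a1 were lost in a fit of all 14 libraries with 1 dispersion trend (log2 fold changes -0.78, -1.12 and -1.05, adjusted p = 0.640, 0.639 and 0.518 by edgeR). ckma passed with DESeq2 (-0.46, adjusted p = 0.0352) and when summed with ckmb (-0.66), and tpma turned to -0.86 when summed with its near copies, as did its difference between populations (-0.86, adjusted p = 0.143). With 1 library left out, ckma ranged from -0.71 (passing only without mutant replicate 4) to -0.34, tpma from -0.29 to 0.70, and the difference between populations from -0.0338 to 2.92 for atp2a1 and from -0.44 to 2.33 for mylpfa, where the signs turned without sox10+ wild-type/heterozygous replicate 1, and for mylpfa also without sox10+ mutant replicate 1 (-0.21) or 4 (-0.27). The log2 ratio of acta1b to atp2a1 in mylz2+ cells ranged from -0.31 to 0.0031, turning without mutant replicate 1, and that of mylpfa to ckma in sox10+ cells from -0.34 to 0.0186, turning without wild-type/heterozygous replicate 2 or mutant replicate 4 (0.00916). On library totals the lists gave 15 lower calcium handling genes, 9 lower myogenic genes and 5 higher glycolytic genes. Over all 20413 genes that scale gave 1122 lower and 4352 higher. In sox10+ mutants, DESeq2 called 4 glycolytic genes higher and 4 lower, beside 2 and 0 with edgeR, and 3 thick filament, 2 thin filament, 4 calcium handling, 4 Z-disc, 1 cardiac and 1 myogenic genes lower. With 1 sox10+ library left out, the thick filament list had 1 to 3 lower genes (1 without mutant replicate 1 or 4), the glycolytic list 1 to 2 higher (1 without mutant replicate 1 or 4), and the Z-disc list 0 to 1 higher (1 only without wild-type/heterozygous replicate 1).

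Whether the replicate numbers pair the samples is not known. Same-numbered libraries correlated at -0.0494 to 0.0383 in their deviations from the group means. Those deviations are centred within groups of only 3 and 4 libraries, so the check cannot exclude a pairing. With a replicate block by description number, mylpfa in mylz2+ cells kept -0.77 but not its call (adjusted p = 0.119 by edgeR), and with the block by title number no call on the 5 genes changed, but all calls of the lists in sox10+ cells were lost (0 lower and 0 higher). Over all genes, DESeq2 called 2422 genes in sox10+ cells beside 793 with edgeR, and 1328 beside 356 for the difference between populations. On library totals 619 of 866 calls in sox10+ cells were higher (71.5%) beside 451 of 793 (56.9%), and for the difference 253 of 373 (67.8%) beside 118 of 356 (33.1%). A minimum of 10 counts in every library left no value for acta1b outside the fit of mylz2+ cells, and DESeq2 gave no adjusted p for ckma and atp2a1 in the joint fit. The fit without robust shrinkage, the sums of near copies and the list counts without single libraries or with the block were chosen after seeing the data. With 3 and 4 libraries, the intervals of the 5 genes in sox10+ cells were too wide to tell falls of several-fold from none.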
